A study of Mus musculus with 106 samples.

Results

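The phagocyte NADPH oxidase was followed here through 5 of its genes, Cybb, Cyba, Ncf1, Ncf4 and Rac2, chosen by name from 21938 protein-coding genes. Each was read at its promoter, within 1000 bp of any annotated start site, and across its gene body with 10 kb on either side. The reading covered 70 lists of ChIP-seq peaks for 2 histone marks, H3K27ac and H3K4me3, made from mouse bone marrow cells.

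The oxidase moves electrons from NADPH across a membrane to oxygen and so makes superoxide, which phagocytes use to kill microbes and which also acts as a signal. Cybb encodes gp91phox, the membrane subunit that carries the electrons, and Cyba encodes p22phox, the membrane partner that stabilises it. Ncf1 encodes p47phox, the cytosolic organiser that is phosphorylated and brings the cytosolic subunits to the membrane, Ncf4 encodes p40phox, which binds phosphoinositides on the phagosome, and Rac2 encodes the GTPase of blood cells that completes the active enzyme. Acetylation of histone H3 at lysine 27 (H3K27ac) marks active promoters and enhancers, and trimethylation at lysine 4 (H3K4me3) marks active start sites. Macrophages and neutrophils express the enzyme strongly, and inherited loss of several subunits causes chronic granulomatous disease.

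All cells came from wild-type C57BL/6J mice that were 12 to 14 weeks old when assigned to groups, either control animals or animals made diabetic with streptozotocin (STZ), a toxin of pancreatic beta cells, at 42 to 45 mg/kg/day over 5 days. Tissue was taken 6 weeks after the last dose from diabetic mice with non-fasted blood glucose above 13.9 mmol/L. Haematopoietic stem cells (HSC) were bone marrow cells left after bead removal of CD3, CD4, B220, Ter119 and Gr1 positive cells, a mixed progenitor fraction rather than sorted stem cells. Bone marrow-derived macrophages (BMDM) were grown for 7 days in medium with 5 mmol/L glucose and L929 cell supernatant, so that cells of both origins were cultured at the same glucose level. They were then left in medium alone or given LPS (100 ng/mL) with interferon-γ (10 ng/mL), abbreviated LPS+IFN-γ, for 16 hours. Each mark had 6 groups of 6 libraries, except diabetic unstimulated BMDM, which had 5, since the samples include no replicate 3 of either mark there. The study counts individual animals as n, but the labels tie no library to an animal, and the p-values measure the spread between libraries.

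The lists differed in length, from 51162 to 176559 peaks for H3K27ac (median 124083) and from 13730 to 277213 for H3K4me3 (median 96580). For this reason each gene was placed by rank inside its own library, using the −log10 p of its best peak, and the rank was expressed as a percentile among all 21938 genes. Genes without a peak share 1 low percentile in a library, between 13.2 and 21.6 for H3K27ac promoters and between 10.3 and 29.6 for H3K4me3 promoters. Tests used the same rank as a normal score, in which a difference of 1 equals 1 SD of the gene ranks, in limma over the 35 libraries of a mark. At 12 macrophage marker genes the mean H3K27ac percentile outside promoters was 75.8 to 89.8 in unstimulated BMDM and 38.4 to 61.9 in HSC. In this measure the labels of cell state and the data went together. With H3K4me3 at promoters the ranges of these markers overlapped (27.1 to 55.5 against 24.0 to 36.0). At 12 stem and progenitor markers the H3K27ac percentile outside promoters was 63.0 to 83.0 in HSC and 52.2 to 68.7 in unstimulated BMDM. The HSC libraries also carried H3K27ac at 8 erythroid markers (65.7 to 91.5, against 41.9 to 56.3 in unstimulated BMDM) and 8 T-cell markers (58.9 to 77.1, against 30.7 to 48.0). At 12 neutrophil markers, whose cells also make the oxidase, HSC libraries lay between 53.1 and 67.4 and unstimulated BMDM between 50.2 and 58.4. All genes of these marker lists had a peak outside promoters in at least 1 H3K27ac library. At 15 genes known to respond to LPS or interferon-γ, stimulated and unstimulated BMDM overlapped in control mice (67.6 to 77.2 against 60.5 to 74.2) and in diabetic mice (61.8 to 76.1 against 52.3 to 64.7). In earlier results of these data 3 H3K27ac libraries (control LPS+IFN-γ replicate 5 and control unstimulated replicates 5 and 6) had gone against their labels, and 4 H3K4me3 libraries (control LPS+IFN-γ replicate 6, diabetic LPS+IFN-γ replicates 1 and 2 and control unstimulated replicate 6) had an unclear scaling. In these bulk samples, a smaller share of cells carrying a mark and less of the mark in each cell cannot be told apart.

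The 5 genes lie on 4 chromosomes (GRCm38, GENCODE release M21). Cybb (ENSMUSG00000015340.10) is on the minus strand at chrX:9435252-9487771, with 5 annotated start sites. Cyba (ENSMUSG00000006519.11) is on the minus strand at chr8:122424776-122432930, with 3 start sites and the 3′ end of Mvd directly upstream. Ncf1 (ENSMUSG00000015950.13) is on the minus strand at chr5:134220053-134229625, with 4 start sites, and its 3′ end overlaps Gtf2ird2. Ncf4 (ENSMUSG00000071715.12) is on the plus strand at chr15:78244801-78262580 with 6 start sites. Rac2 (ENSMUSG00000033220.7) is on the minus strand at chr15:78559167-78572783 with 3 start sites and a lincRNA, Gm36738, upstream. Cyba and Rac2 have neighbours inside their 10 kb flanks, as has Ncf1, and a peak there cannot be assigned to 1 gene from these lists.

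The promoters of Cybb, Cyba and Ncf1 are shown. A Cyba promoter peak was among the 10000 strongest in 34 of 35 H3K27ac lists, an Ncf1 one in 9, and Cybb had none. In HSC the Cyba percentile among all genes was 50.1 to 76.7. The Ncf1 window lies at the first start, but the best Ncf1 promoter peak was often at an internal one. Its H3K27ac summit lay at a median of 879 bp past the first start in HSC and 2344 bp in unstimulated BMDM. The Ncf1 sequence shown is thus often not the one under that peak. The sequences are RefSeq promoters on GRCm38.p6, 250 bases before to 50 after the start, each read 5′ to 3′ on the minus strand, and capitals mark the motif matches named afterwards. They lie at chrX:9469275-9469574 for Cybb, chr8:122432891-122433190 for Cyba and chr5:134229576-134229875 for Ncf1.
Cybb: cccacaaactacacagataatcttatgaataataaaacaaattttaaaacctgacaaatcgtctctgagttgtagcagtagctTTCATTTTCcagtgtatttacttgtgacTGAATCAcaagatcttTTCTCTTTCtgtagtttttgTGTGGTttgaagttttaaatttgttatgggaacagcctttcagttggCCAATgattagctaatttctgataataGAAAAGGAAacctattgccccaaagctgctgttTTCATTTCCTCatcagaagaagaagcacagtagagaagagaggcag
Cyba: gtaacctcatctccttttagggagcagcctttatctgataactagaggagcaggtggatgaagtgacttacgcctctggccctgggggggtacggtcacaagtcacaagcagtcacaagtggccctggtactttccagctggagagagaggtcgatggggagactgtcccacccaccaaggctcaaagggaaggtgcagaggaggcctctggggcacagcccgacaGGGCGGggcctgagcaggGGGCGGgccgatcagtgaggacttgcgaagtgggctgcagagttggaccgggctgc
Ncf1: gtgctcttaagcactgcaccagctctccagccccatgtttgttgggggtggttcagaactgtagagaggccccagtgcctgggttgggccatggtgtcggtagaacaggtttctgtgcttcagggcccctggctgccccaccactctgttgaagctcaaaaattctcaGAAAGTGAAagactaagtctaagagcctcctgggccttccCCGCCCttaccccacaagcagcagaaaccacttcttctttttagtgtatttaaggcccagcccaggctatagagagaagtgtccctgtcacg
The Cybb window was AT-rich, with 35.3% G+C and 1 CpG, against medians of 52.7% and 7 over 32851 RefSeq promoters. The Cyba window had 60.7% G+C and 9 CpG, and the Ncf1 window 54.0% and 3. Motifs were searched on both strands. In the Cybb window the interferon response motif GAAANNGAA matched at 3 places, and 8.56% of all promoters of this length hold at least 1 match. The same window held 1 match each of the ETS and PU.1 core GAGGAA (28.3% of promoters), the PU.1 and IRF composite GGAANNGAA (8.24%), the Runx motif TGTGGT (16.8%), the AP-1 motif TGANTCA (7.81%) and the CCAAT box (37.4%), and the first 2 overlapped each other just past the start. The Cyba window held 2 GC boxes, GGGCGG (35.7% of promoters), within 24 bases of the start. The Ncf1 window held 1 GC box and 1 GAAANNGAA. TTGCNNAA for C/EBP (10.8%), GGGANNTCC for NF-κB (4.29%) and the TATA box (13.6%) had no match in these 3 windows.

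Cybb, the gene of the catalytic subunit, had no promoter peak in any of the 35 H3K27ac or the 35 H3K4me3 lists used here. Whether these lists hold every peak of the caller was not tested. Promoters without a peak in any list made up 17.9% of all protein-coding genes for H3K27ac and 16.2% for H3K4me3. The other 4 members were occupied far more widely. Cyba and Ncf1 had a promoter peak in 35 of 35 lists of each mark, Rac2 in 35 for H3K27ac and 34 for H3K4me3, and Ncf4 in 35 and 29. A promoter peak in all 35 lists was seen for 47.0% of genes with H3K27ac and 36.9% with H3K4me3. The lists without an H3K4me3 peak at Ncf4 were 3 of control HSC and 1 each of diabetic HSC, control unstimulated and diabetic LPS+IFN-γ BMDM. Peak strength set the members further apart. Among the 10000 strongest peaks of each list, a Cyba promoter peak was present in 34 of 35 lists for H3K27ac and 23 of 35 for H3K4me3. The counts were 21 and 5 for Rac2, 9 and 9 for Ncf1, and 5 and 3 for Ncf4.

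**Figure D1:**
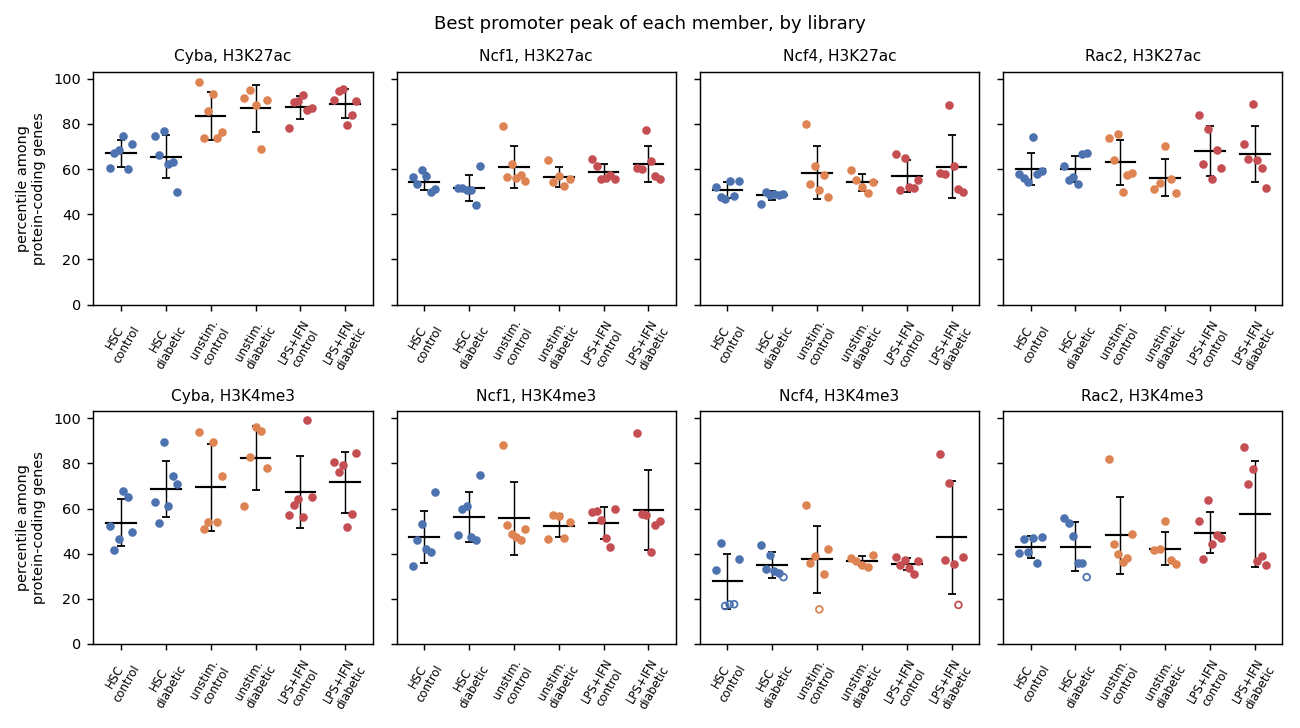
Percentile of the best promoter peak of Cyba, Ncf1, Ncf4 and Rac2 among 21938 protein-coding genes (vertical axis) in every library, by group, for H3K27ac (top) and H3K4me3 (bottom). Filled points have a promoter peak and open points have none, and bars give the group mean and SD. Cyba H3K27ac lay between 50.1 and 76.7 in the HSC libraries and between 69.0 and 98.4 in the BMDM libraries.

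Outside promoters, the Cybb locus held few H3K27ac peaks, and these were mostly in BMDM. The best peak in the gene body and flanks put Cybb at a percentile of 14.7 to 18.7 (median 15.8) in control HSC, where 0 of 6 lists held any peak there. In control unstimulated BMDM, 5 of 6 lists held one and the percentile was 26.1 to 74.5 (median 45.9). The HSC values and the lowest BMDM value are the level that all genes without a peak share, which depends on the length of the list. In diabetic HSC, 2 of 6 lists held a peak and the percentile was 15.1 to 62.2 (median 26.1). Diabetic unstimulated BMDM stood at 57.5, 33.9, 73.0, 70.6 and 48.8 in replicates 1, 2, 4, 5 and 6, all with a peak. The groups overlapped, through 1 HSC library at 62.2. Cybb had enough lists with a peak to be tested only through BMDM, the cells in which it was higher, so its score differences of 0.88 ± 0.24 (SE) in control and 0.73 ± 0.25 in diabetic mice are given as a description and no test is read from them. Of the other 4 members, limma called 3 in each origin for this comparison, Cyba higher and Ncf1 and Rac2 lower in BMDM, beside 19.4% of the 18090 genes tested in control mice (9.25% higher and 10.1% lower) and 18.2% in diabetic mice (9.2% higher and 9% lower).

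With the gene body alone, without flanks, the Cybb difference was 0.42 in control mice and −0.14 in diabetic mice. The peaks that set the score lay far from the start: in 6 of 11 unstimulated BMDM lists the best was downstream of the gene, at a median of 35160.5 bp. An intergenic region at chrX:9433252-9434401, just beyond the 3′ end, held H3K27ac in 0 of 6 control HSC, 2 of 6 diabetic HSC, 4 of 6 control and 5 of 5 diabetic unstimulated BMDM lists. After LPS+IFN-γ it was held in 4 of 6 lists of each origin. The same region carried H3K4me3 in 5 of 6 control and 4 of 6 diabetic HSC lists and in all 23 BMDM lists. An upstream region at chrX:9496402-9496751 held H3K27ac in 0 HSC lists, 6 unstimulated and 5 stimulated BMDM lists. With H3K4me3 outside promoters, Cybb in unstimulated BMDM differed from HSC by 0.012 ± 0.28 in control mice and 0.29 ± 0.29 in diabetic mice, and neither was called by limma (adjusted p = 0.988 and 0.690).

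Cyba, the membrane partner, had the strongest promoter peak of the 5 genes and ranked higher in macrophages than in HSC. The H3K27ac percentile at its promoter was 60.1 to 74.9 (median 67.6) in control HSC and 73.6 to 98.4 (median 81.0) in control unstimulated BMDM. It was 50.1 to 76.7 (median 64.7) in diabetic HSC and stood at 91.5, 95.0, 88.4, 69.0 and 90.8 in diabetic unstimulated BMDM. The cell states overlapped in both origins, in diabetic mice through BMDM replicate 5 alone. The score was 0.67 ± 0.20 (SE) higher in BMDM than in HSC in control mice (limma adjusted p = 0.0217) and 0.80 ± 0.21 higher in diabetic mice (limma adjusted p = 0.00976). Cyba was the 1 member called of 4 tested in either origin, with 14.4% and 13.9% of 16825 genes called in the same comparisons. The call in control mice was lost without control unstimulated BMDM replicate 1 (limma adjusted p = 0.0801) or replicate 4 (0.0569). Ranking peaks on fold enrichment instead of −log10 p gave limma adjusted p of 0.242 and 0.149, and exact permutation gave 0.0555 and 0.0591.

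The H3K27ac summit of the promoter peak lay at a median of 189 bp past the start in HSC (128 to 233), 181 bp in unstimulated BMDM (152 to 227) and 210 bp after LPS+IFN-γ (150 to 880). With H3K4me3 the Cyba promoter ranked at 41.5 to 67.8 (median 50.9) in control HSC and 50.9 to 93.8 (median 64.1) in control unstimulated BMDM. In diabetic HSC it ranked at 53.8 to 89.5 (median 66.9), and in diabetic unstimulated BMDM at 61.0, 82.6, 96.0, 94.3 and 77.8. These groups overlapped, and the differences of 0.51 ± 0.31 and 0.54 ± 0.32 were not called by limma (adjusted p = 0.320 and 0.426).

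Outside its promoter, Cyba had H3K27ac peaks in its own introns and exons and upstream over the body of Mvd. The best of them ranked at 61.4 to 86.2 (median 80.3) in control HSC and at 90.7 to 96.1 (median 93.9) in control unstimulated BMDM, with no overlap. In diabetic HSC the percentile was 68.7 to 88.4 (median 76.5), and in diabetic unstimulated BMDM it was 90.6, 91.4, 94.0, 89.0 and 88.2. The last of these lay just under the highest HSC library. The differences were 0.74 ± 0.17 in control mice (limma adjusted p = 0.00127) and 0.53 ± 0.18 in diabetic mice (limma adjusted p = 0.0294). In control mice the call held without any 1 library and under all 7 other alternatives run for it, with limma or exact permutation adjusted p up to 0.0312. In diabetic mice it was lost without unstimulated BMDM replicate 2 or 4 or HSC replicate 4, 5 or 6 (limma adjusted p from 0.0534 to 0.0766) and by exact permutation (0.0812). The best peak lay upstream of the start in 8 of 12 HSC lists and 6 of 11 unstimulated BMDM lists, and inside the gene in the rest. A region within the gene at chr8:122426776-122429025 was held by every list but 1 of diabetic HSC. With H3K4me3 the differences outside the promoter were 0.18 ± 0.25 and 0.11 ± 0.26, neither called by limma (adjusted p = 0.750 and 0.888).

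**Figure D2:**
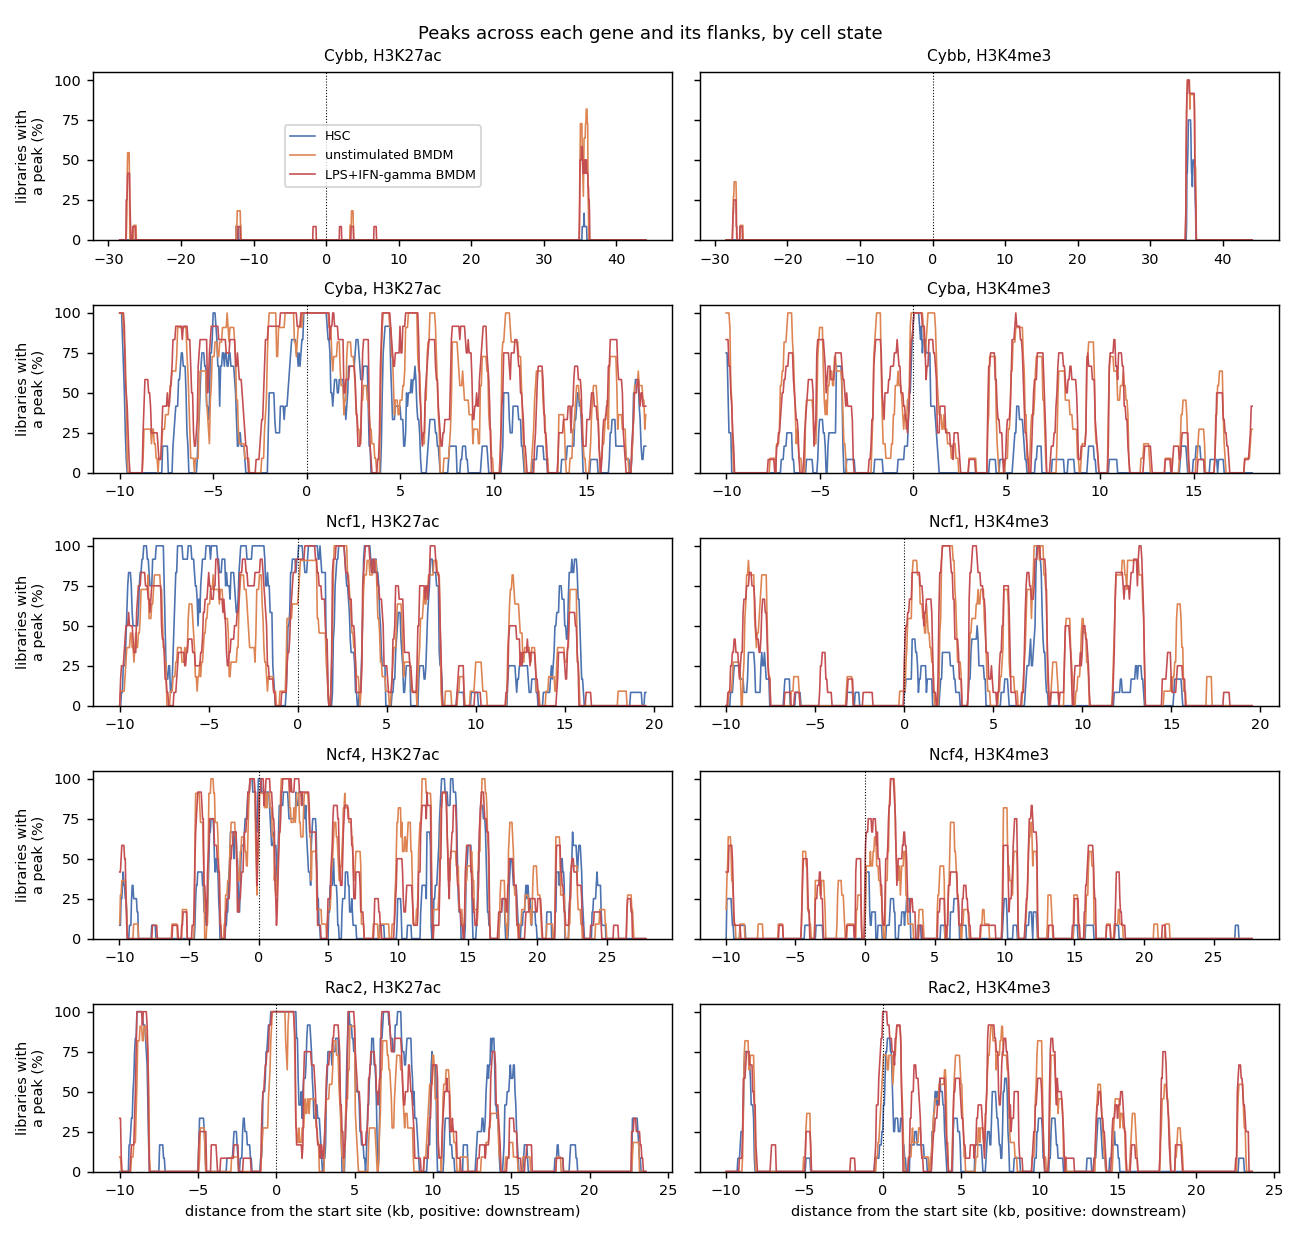
Share of libraries with a peak (vertical axis, percent) along each gene and its 10 kb flanks, in 50 bp steps, against the distance from the start site in kb, positive downstream, for H3K27ac (left) and H3K4me3 (right). Lines stand for 12 libraries of HSC, 11 of BMDM without stimulation and 12 of BMDM with LPS+IFN-γ. Cybb had no peak at its start in either mark, and the peaks of its locus lay mostly past its 3′ end.

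Ncf1, the organiser that carries the other cytosolic subunits, had a mid-ranked promoter that differed little between groups. Its H3K27ac percentile was 49.8 to 59.4 (median 54.8) in control HSC and 54.7 to 79.2 (median 57.0) in control unstimulated BMDM. It was 43.9 to 61.5 (median 51.2) in diabetic HSC and 64.0, 54.2, 56.8, 52.6 and 55.7 in diabetic unstimulated BMDM. The groups overlapped and the differences of 0.18 ± 0.11 and 0.13 ± 0.11 were not called by limma (adjusted p = 0.290 and 0.502). The best Ncf1 promoter peak was often at an internal start site rather than the first one. In unstimulated BMDM its H3K27ac summit lay at a median of 2344 bp past the first start, and in HSC at 879 bp. H3K4me3 at the promoter was centred 7562.5 bp (median) into the gene in HSC and 2377 bp in unstimulated BMDM.

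Away from its start sites, Ncf1 ranked lower in macrophages than in HSC. The H3K27ac percentile was 79.0 to 96.6 (median 94.8) in control HSC and 70.1 to 88.2 (median 86.0) in control unstimulated BMDM. These groups overlapped through HSC replicate 5, at 79.0, and the other HSC libraries were above every BMDM library. In diabetic HSC the percentile was 91.8 to 96.0 (median 94.7), and in diabetic unstimulated BMDM it was 84.7, 83.1, 78.8, 74.7 and 75.8. All 6 diabetic HSC libraries lay above all 5 diabetic BMDM libraries. The score differed by −0.57 ± 0.19 in control mice (limma adjusted p = 0.0271) and by −0.75 ± 0.20 in diabetic mice (limma adjusted p = 0.00619). The diabetic call held without any 1 library and also by exact permutation (adjusted p = 0.0357). The control call was lost without unstimulated BMDM replicate 2 or 6 or HSC replicate 2 or 4 (limma adjusted p from 0.0608 to 0.0769), without the 3 H3K27ac libraries that went against their labels (0.0727) and by exact permutation (0.0902).

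The best peak of Ncf1 differed in position between cell states, which was not tested. In all 12 HSC lists the best peak lay upstream of the first start, at a median of −3016 bp. In the 11 unstimulated BMDM lists it lay upstream in 5, inside the gene in 5 and downstream in 1. An intergenic region at chr5:134231003-134236652, between Ncf1 and Gtf2i, was held by all 35 lists. With the gene body alone, leaving out both flanks, the sign turned, to 0.36 in control mice (limma adjusted p = 0.246) and 0.031 in diabetic mice (0.945). In HSC libraries the erythroid and T-cell marker levels given above were higher as well, and so were those of stem and progenitor markers, with some overlap. The part of these cells in the Ncf1 values was not tested. With H3K4me3, Ncf1 outside promoters differed by 0.58 ± 0.27 in control mice, at an unadjusted limma p of 0.0369 and an adjusted p of 0.227. In diabetic mice the difference was 0.40 ± 0.28 (limma adjusted p = 0.546). The H3K4me3 region at chr5:134216103-134217852, beyond the 3′ end in the body of Gtf2ird2, was held by 1 of 6 control and 2 of 6 diabetic HSC lists and by all 23 BMDM lists.

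Ncf4, which binds the phagosome membrane, had a promoter ranked near the middle for H3K27ac and low for H3K4me3. Its gene body and flanks ranked high for H3K27ac. Its median promoter percentile was the lowest of the 4 members with peaks in every group of either mark, except H3K27ac in diabetic unstimulated BMDM, where Rac2 was at 54.0 and Ncf4 at 54.3. Its promoter H3K27ac percentile was 46.8 to 54.9 (median 50.0) in control HSC and 47.7 to 79.9 (median 55.5) in control unstimulated BMDM. It was 44.7 to 50.0 (median 48.8) in diabetic HSC and 59.7, 54.99, 52.2, 49.6 and 54.3 in diabetic unstimulated BMDM. Both pairs of groups overlapped, and the differences of 0.21 ± 0.14 and 0.15 ± 0.15 were not called by limma (adjusted p = 0.351 and 0.569). Exact permutation did call the diabetic difference (adjusted p = 0.0397), beside 2210 of 16825 genes called. It was the 1 alternative under which a member not called by limma was called.

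In the gene body and flanks Ncf4 ranked between 76.1 and 98.4 in all 35 H3K27ac libraries. The medians were 96.7 in control HSC, 93.2 in diabetic HSC, 95.9 in control and 93.4 in diabetic unstimulated BMDM, and 96.9 and 95.3 after LPS+IFN-γ. The cell states differed by 0.089 ± 0.22 and 0.077 ± 0.23, neither called by limma (adjusted p = 0.816 and 0.859). The place of the best peak was another matter. In 10 of 12 HSC lists it lay inside the gene, at a median of 13304 bp past the start, and in all 11 unstimulated BMDM lists inside the gene at a median of 1937 bp. The distal intron, at chr15:78257451-78259150, was held by every list. No test was run on the position.

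H3K4me3 in the gene body of Ncf4 was the 1 member value of this mark that limma called. The percentile was 24.9 to 76.7 (median 31.2) in control HSC, where 2 of 6 lists held a peak, and 70.3 to 95.8 (median 84.8) in control unstimulated BMDM, where all 6 did. Only 1 HSC library reached the range of BMDM. The difference was 1.32 ± 0.33 (limma adjusted p = 0.0159), with 3.35% of 19101 genes called. In diabetic HSC the percentile was 17.4 to 73.9 (median 57.8, 4 of 6 lists with a peak), and diabetic unstimulated BMDM stood at 84.7, 61.0, 95.5, 93.1 and 83.3. The groups overlapped, and the difference of 1.05 ± 0.34 was not called by limma (adjusted p = 0.130, with 0.508% of genes called). The intron region concerned, chr15:78246251-78247850, was held by 2 of 6 control and 4 of 6 diabetic HSC lists and by all 23 BMDM lists. The H3K4me3 lists of control HSC were also the shorter ones, from 37378 to 109214 peaks against 81003 to 212718 in control unstimulated BMDM. With log2 of the peak number in the fit the difference was 1.01 (limma adjusted p = 0.254). The call was also lost without control unstimulated BMDM replicate 2 (limma adjusted p = 0.0513) and with peaks ranked on fold (limma adjusted p = 0.316). Exact permutation gave an adjusted p of 0.123. It called 0 of the 19101 genes in this comparison, so the loss there is no result about Ncf4.

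**Figure D3:**
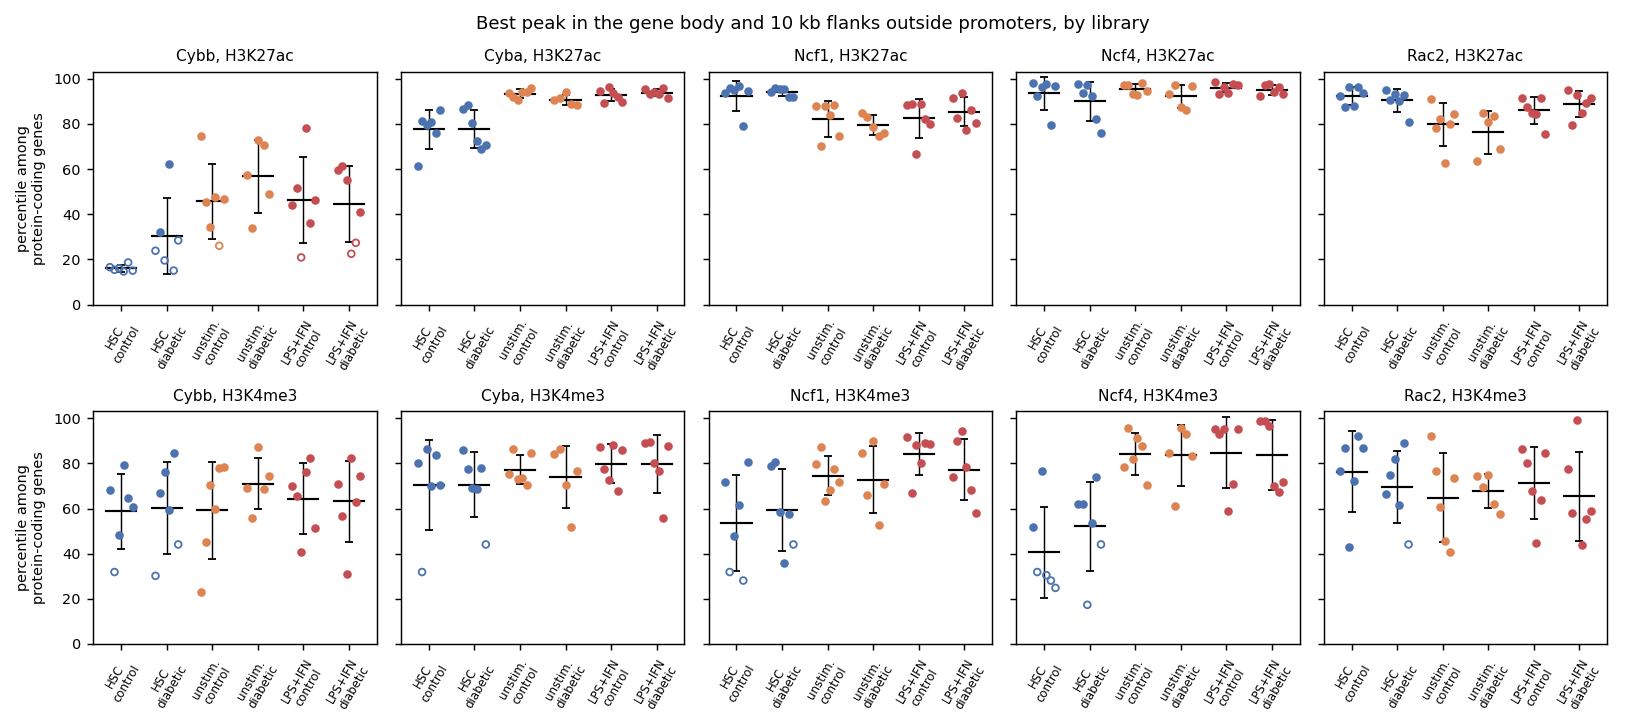
Percentile of the best peak in the gene body and 10 kb flanks, outside promoters, among 21938 protein-coding genes (vertical axis) in every library, by group, for H3K27ac (top) and H3K4me3 (bottom). Filled points have such a peak and open points have none, and bars give the group mean and SD. H3K27ac at Cyba was between 61.4 and 88.4 in HSC and between 88.2 and 96.3 in BMDM, and at Ncf1 all diabetic HSC libraries were above all diabetic unstimulated BMDM libraries.

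Rac2, the GTPase, had similar promoter ranks in HSC and unstimulated macrophages. Its H3K27ac percentile was 54.4 to 74.3 (median 57.8) in control HSC and 49.9 to 75.4 (median 61.2) in control unstimulated BMDM. In diabetic HSC it was 53.5 to 67.0 (median 58.9), and in diabetic unstimulated BMDM 51.4, 54.0, 70.4, 55.5 and 49.5. The groups overlapped throughout, and the differences of 0.087 ± 0.16 and −0.097 ± 0.17 were not called by limma (adjusted p = 0.759 and 0.750).

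Outside its promoter Rac2 ranked lower in unstimulated macrophages than in HSC. The H3K27ac percentile was 87.6 to 96.4 (median 93.2) in control HSC and 62.8 to 90.9 (median 81.2) in control unstimulated BMDM. It was 80.8 to 95.2 (median 91.8) in diabetic HSC and 63.4, 84.7, 81.0, 83.5 and 69.0 in diabetic unstimulated BMDM. Both pairs overlapped at their edges. The score differed by −0.61 ± 0.19 in control mice (limma adjusted p = 0.0205) and by −0.61 ± 0.20 in diabetic mice (limma adjusted p = 0.0288). In control mice the call was lost without unstimulated BMDM replicate 4 or HSC replicate 3 or 5 (limma adjusted p from 0.0531 to 0.0690), and in diabetic mice without unstimulated BMDM replicate 1 or 6 or HSC replicate 1, 3 or 5 (0.0508 to 0.0964). By exact permutation neither was called (adjusted p = 0.0596 and 0.0730), and the control call was also lost with peaks ranked on fold (limma adjusted p = 0.0656) and with no flank, where the difference was −0.39 (0.147). The best peak lay upstream in 11 of 12 HSC lists, at a median of −8709 bp over an exon of Gm36738, and in 6 of 11 unstimulated BMDM lists at −8703 bp. That region, chr15:78580917-78581966, spans the annotated 5′ end of this minus-strand lincRNA, at chr15:78581616. Only the starts of protein-coding genes were left out of this measure. The region was held by every list but 1 of control unstimulated BMDM. As at Ncf1, the erythroid, T-cell and stem and progenitor marker levels were higher in the HSC libraries, the last with some overlap, and their part was not tested. With H3K4me3 outside promoters the differences were −0.35 ± 0.32 and −0.094 ± 0.33, neither called by limma (adjusted p = 0.577 and 0.927).

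The H3K4me3 promoters of Ncf1, Ncf4 and Rac2 varied widely inside groups. As at Ncf1, the best promoter peak of Ncf4 and Rac2 was often far from the first start. In unstimulated BMDM, summits inside the gene lay at a median of 10070 bp for Ncf4 and 6885 bp for Rac2. In HSC the medians were 795.5 and 401.5 bp, so these ranks often compare different sites of a gene. Among control HSC libraries the percentiles were 34.4 to 67.5 for Ncf1, 16.8 to 44.8 for Ncf4 and 35.7 to 47.3 for Rac2. Among control unstimulated BMDM they were 45.8 to 88.1, 15.3 to 61.3 and 36.3 to 81.8. The upper ends of these 3 ranges in BMDM were all from replicate 1. For cell state at H3K4me3 promoters limma called 0 of 4 members in control mice and 0 of 4 in diabetic mice, with 3.84% and 0.234% of 17105 genes called, and at an unadjusted p under 0.05 the count was also 0 in both. Exact permutation called 0 members as well, and 0 of the 17105 genes in either origin.

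Diabetes was the comparison the study was built on, and at these 5 genes no difference by origin passed the test. Ranks inside a library only place genes against one another, so a change of a mark shared by most genes would not appear. The paper reported from Western blots that both marks were raised in diabetic HSC, and such a change was not tested here. For promoter H3K27ac, limma called 0 of 4 members in HSC, 0 of 4 in BMDM left in medium and 0 of 4 in stimulated BMDM, where 0.00594%, 0% and 0% of all genes were called. The member differences, diabetic minus control, ran from −0.070 to −0.0016 in HSC, from −0.19 to 0.092 in unstimulated BMDM and from −0.021 to 0.14 after LPS+IFN-γ. For H3K27ac outside promoters the counts were again 0 of 5 in each cell state, beside 0.00553%, 0% and 0% of genes. The differences ran from −0.24 to 0.44, from −0.25 to 0.29 and from −0.12 to 0.15. The largest of them was at Cybb in HSC, 0.44 ± 0.24 (limma adjusted p = 0.999). A peak was held there by 2 diabetic and 0 control libraries.

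H3K4me3 gave the same counts. At promoters limma called 0 of 4 members in each of the 3 cell states, with 0% of genes called in each, and the differences reached from −0.17 to 0.45. The highest was Cyba in unstimulated BMDM, 0.45 ± 0.32 (limma adjusted p = 1.00), with control libraries at 50.9 to 93.8 and diabetic libraries at 61.0 to 96.0. Outside promoters limma called 0 of 5 members in each cell state, with 0.00524%, 0% and 0% of genes called, and the differences were between −0.24 and 0.34. At an unadjusted p under 0.05 limma counted 0 members in all 12 of these comparisons by origin. Exact permutation with adjustment called 0 members in each, and also 0 of all genes tested. Unadjusted, exact permutation gave p = 0.0152 for Cybb H3K27ac outside promoters in HSC and p = 0.0498 for the Cyba H3K4me3 promoter in HSC. No difference by origin is read from the Cybb value, since only 2 diabetic and 0 control HSC lists held a peak there. The other HSC values are the level shared by genes without a peak, which depends on the length of the list. These H3K27ac lists held 51162 to 130995 peaks in diabetic HSC and 100045 to 139452 in control HSC.

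Stimulation with LPS+IFN-γ, which primes macrophages for an oxidative burst, likewise moved no member past the threshold. At promoters with H3K27ac limma called 0 of 4 members in control mice and 0 of 4 in diabetic mice, with 0% and 1.96% of genes called. Cyba ranked at 78.2 to 93.0 (median 88.3) after stimulation in control mice and at 79.4 to 95.7 (median 90.3) in diabetic mice, inside or next to the unstimulated ranges given above. Outside promoters the counts were 0 of 5 and 0 of 5, with 0% and 1.61% of genes called. Rac2 in diabetic mice came nearest. It stood at 63.4, 84.7, 81.0, 83.5 and 69.0 unstimulated and at 79.7 to 94.9 (median 90.3) after LPS+IFN-γ. These groups overlapped, and the difference of 0.52 ± 0.20 had an unadjusted limma p of 0.0135 and an adjusted p of 0.185. It was the only member difference by stimulation at an unadjusted p under 0.05 in limma. Exact permutation with adjustment called 0 members and 0 of all genes tested in each comparison by stimulation. Unadjusted, exact permutation gave p = 0.0216 for Rac2 and p = 0.0325 for Cyba in that comparison.

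With H3K4me3, limma called 0 of 4 promoter members and 0 of 5 outside promoters in control mice, and the same in diabetic mice, with 0% of genes called in each of the 4 comparisons. At the Rac2 promoter of diabetic mice the percentiles were 41.4, 42.0, 54.4, 37.3 and 35.6 unstimulated and 34.8 to 87.1 (median 54.8) after stimulation, a difference of 0.44 ± 0.23 (limma adjusted p = 0.760). The test of whether the effect of stimulation differed with diabetes, and that of whether the effect of diabetes differed between HSC and unstimulated BMDM, called 0 members in limma for either mark or measure. Those 8 tests called 0% of all genes, and none of the members had an unadjusted p under 0.05.

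**Figure D4:**
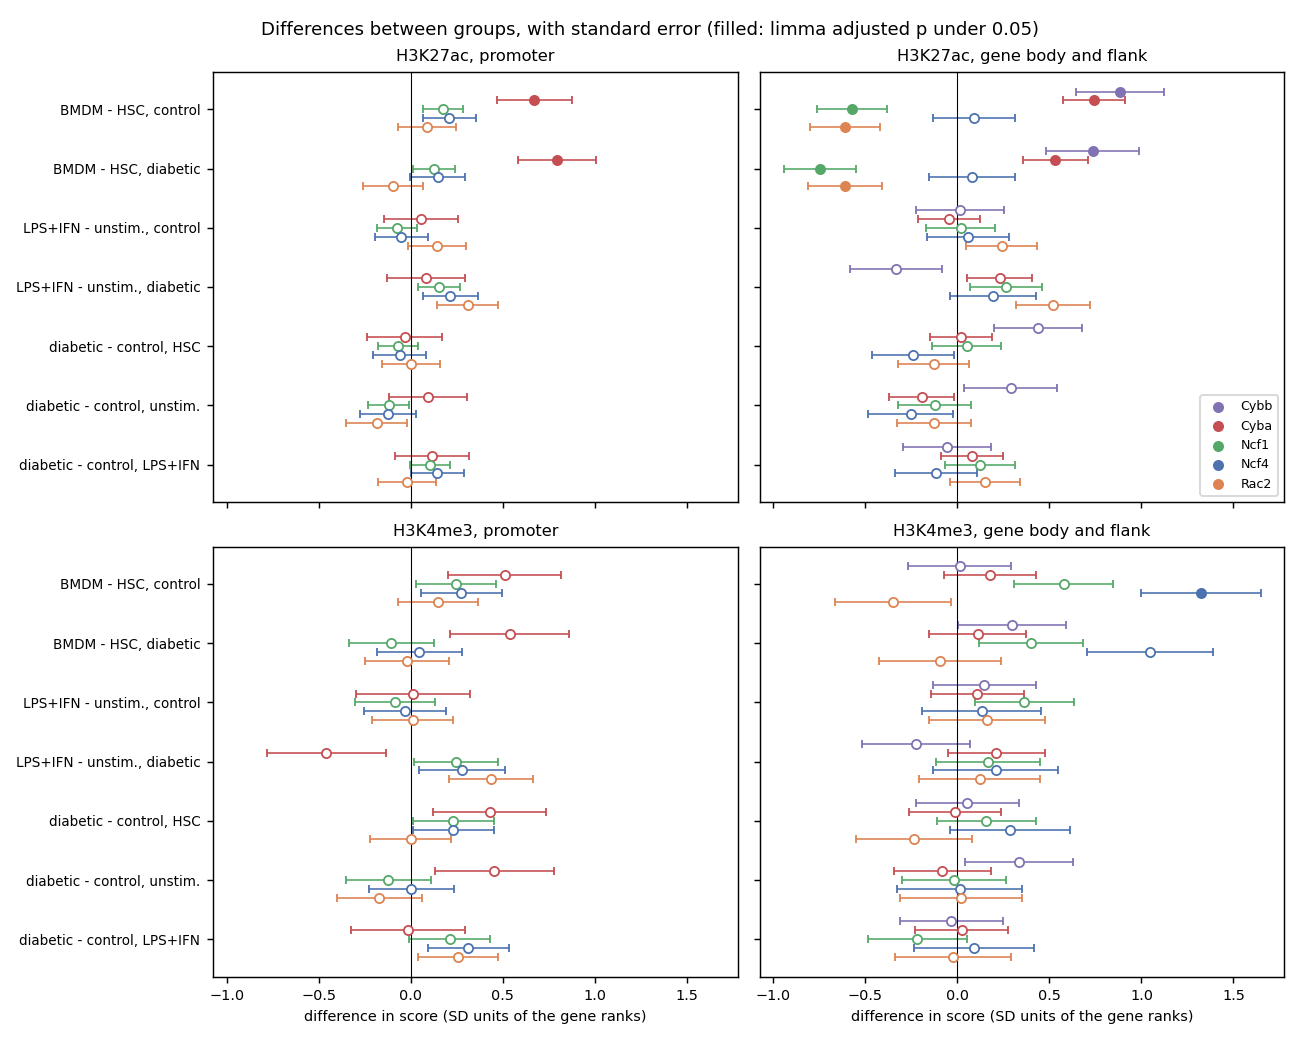
Difference in score between groups for each member (horizontal axis, in SD units of the gene ranks), with its standard error, for the 7 comparisons listed on the vertical axis, by mark and measure. Filled points have a limma adjusted p under 0.05. The filled points are all differences between BMDM and HSC, with Cyba to the right of 0 and Ncf1 and Rac2 to the left for H3K27ac outside promoters. Cybb is also filled there, from HSC libraries of which all but 2 had no peak.

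The members did not vary together across libraries to the same degree. Over the 35 H3K27ac libraries, the promoter scores of Ncf1 and Ncf4 had a Pearson correlation of 0.85, Ncf4 and Rac2 of 0.73, and Cyba and Rac2 of 0.23. With H3K4me3, Ncf4 and Rac2 stood at 0.75 and Cyba and Ncf4 at 0.16. These values describe libraries of 6 groups whose lists differ in length, and no p is given. Among genes at least 100 kb away, the H3K27ac promoter scores most like that of Cyba were Cxcl16 and Zmynd15 (0.83 each) and Zfyve28 (0.78). For Ncf1 they were Ncf4 and Ikbke, which encodes a kinase of innate immune signalling, and Anpep, a membrane peptidase of myeloid cells, each at 0.85. For Ncf4 they were Csf3r, the receptor of granulocyte colony-stimulating factor, and Cd68, a macrophage marker, at 0.92 each, and Washc3 (0.91). For Rac2 they were H2-M3 (0.85), Nr1h3, the oxysterol receptor LXRα (0.84), and Celf2 (0.83). With H3K4me3 the leading genes were Psap for Cyba (0.73), Celf2 for Ncf1 (0.76), Rpl8 for Ncf4 (0.79) and Zfp747 for Rac2 (0.86).

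Other oxidase genes, 11 subunits, partners and related enzymes (Rac1, Cybc1, Nox1, Nox3, Nox4, Noxo1, Noxa1, Duox1, Duox2, Duoxa1 and Duoxa2), were read in the same way. With H3K27ac at promoters 9 of the 11 were tested, and 1 was lower in control unstimulated BMDM than in HSC, beside 14.4% of all genes called. That was Noxa1, an activator of the oxidase of epithelia, at a median percentile of 47.3 in HSC and 25.1 in BMDM (−0.58 ± 0.16, limma adjusted p = 0.0102). In diabetic mice limma called 0 of the 9, beside 13.9%. Outside promoters limma called 0 of 11 in control mice, beside 19.4%, and 1 fell in diabetic mice, beside 18.2%, Duox1, from a median of 99.0 to 93.5 (−0.81 ± 0.28, limma adjusted p = 0.0367). The median difference of the list at promoters was 0.021 in control mice, beside −0.0091 over all genes. Nox3 had no promoter peak in any list of either mark, and Duox1 none in any H3K27ac list.

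A set of 12 genes that act upstream of the phagocyte oxidase or beside it was read likewise. At promoters with H3K27ac, 3 of 12 rose and 1 fell in control unstimulated BMDM against HSC, beside 14.4% of all genes called, with a list median of 0.11 beside −0.0091 over all genes. Prkcd, a protein kinase C that phosphorylates p47phox, rose from a median percentile of 80.0 to 93.8 (0.66 ± 0.18, limma adjusted p = 0.0126). Hvcn1, the proton channel that balances charge during the burst, rose from 45.9 to 66.5 (0.54 ± 0.13, limma adjusted p = 0.00491). Prkcb, another protein kinase C, rose from 54.9 to 72.3 (limma adjusted p = 0.0118), and Pik3cg, a phosphoinositide kinase, fell from 62.0 to 44.1 (limma adjusted p = 0.00396). In diabetic mice 3 of 12 rose and 0 fell, beside 13.9% of all genes called: Prkcd (0.89 ± 0.19, limma adjusted p = 0.00175), Prkcb (0.51 ± 0.15) and Vav3, an exchange factor for Rac (0.51 ± 0.15), the last at a limma adjusted p of 0.0201.

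Outside promoters, 1 of the 12 rose and 2 fell in control mice, and 0 rose and 3 fell in diabetic mice, beside 19.4% and 18.2% of all genes called. Rap1a, a small GTPase found with the membrane subunits, fell from a median percentile of 77.4 to 33.4 in control mice (limma adjusted p = 0.00134) and from 68.7 to 39.7 in diabetic mice (0.00730). Prdx6, a peroxiredoxin, fell in both (−0.93 ± 0.29 and −1.13 ± 0.31), and Prkcd rose in control mice (0.65 ± 0.20). Neither list had a gene called in limma for diabetes, stimulation, the interactions or any H3K4me3 comparison.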

How the data were processed

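H3K27ac and H3K4me3 were measured by ChIP-seq, with antibodies ab4729 and ab8580, in 70 libraries, and 36 input libraries of the series were not used here. The members and gene lists were chosen with earlier results of these data known. The authors deposited 1 list of narrow peaks per library, on GRCm38 (mm10), made per the submitters' processing notes with Trim Galore 0.3.3, cutadapt 1.8, FastQC 0.11.3, Bowtie2 2.2.6, Picard 2.18.14 and 2.19.2, bedtools 2.19.1 and MACS2 2.2.7.1. Each deposited peak has a score, a fold enrichment, a −log10 p, a −log10 q (at least 1.30104 in the lists) and a summit offset. Read depth is not in these lists, so their length and the spread between libraries set the precision. Peaks are called regions of enrichment, and a gene without one may carry less of the mark than the caller could detect.

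Each of 21938 protein-coding genes (GENCODE M21, 93513 start sites) took the highest −log10 p of a peak within 1000 bp of a start, or of a summit in the gene or its 10 kb flanks and over 1000 bp from any protein-coding start. Ranks within a library became normal scores. Genes with a peak in at least 6 of 35 libraries were fitted in limma 3.58.1 (R 4.3.3) with 6 groups per mark, and p-values were adjusted over all genes tested by the Benjamini-Hochberg method, with a threshold of 0.05. Exact permutation tests, two-sided, used all 924 or 462 arrangements of the libraries, with a smallest p of 0.002165. Genes named as alike were the 3 with the highest correlation per member and mark. The values of 1 list gene that was called are not reported here. The scripts were tested on simulated data, with 100 genes shifted by 0.5 and 100 by 1 between control unstimulated BMDM and HSC. At 0.5, 38% of the shifted genes were called for H3K27ac at promoters and 7% outside them, and 6% and 3% for H3K4me3. At 1 the shares were 88% and 52% for H3K27ac, and 59% and 22% for H3K4me3. A count of 0 members called thus does not show that differences of such sizes were absent. Other steps used Python 3.11.15 with numpy 2.4.6, pandas 2.3.3, scipy 1.17.1 and matplotlib 3.10.9. The alternatives were ranking on fold, a q of 0.001 or less, the 10000 strongest peaks, promoter half-widths of 500 and 2500 bp, no filter, other scales, no flank, only the 2 groups compared, a replicate block, log2 of the peak number as covariate, leaving out 7 doubted libraries, and leaving out each library.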

Additional observations from a re-analysis of the deposited data

Results flagged for a closer look

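Of 108 groups of member percentiles, 16 had 1 library set apart from the rest by Dixon's test, where chance gives about 1 in 20, or 5.4. At H3K27ac promoters these were Cyba in diabetic unstimulated BMDM replicate 5 (69.0, nearest other 88.4), Ncf1 in control unstimulated BMDM replicate 1 (79.2, nearest 62.1) and Ncf1 in diabetic LPS+IFN-γ BMDM replicate 3 (77.3, nearest 63.4). The same replicate 3 was high for Ncf4 (88.5, nearest 61.4), and Ncf4 was low in diabetic HSC replicate 1 (44.7, nearest 48.7). Rac2 was high in control HSC replicate 4 (74.3, nearest 59.3) and in diabetic unstimulated BMDM replicate 4 (70.4, nearest 55.5).

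For H3K27ac outside promoters, control HSC replicate 5 was low for Ncf1 (79.0, nearest 93.6) and for Ncf4 (79.4, nearest 92.5). Cybb was high in diabetic HSC replicate 4 (62.2, nearest 32.1) and Rac2 low in diabetic HSC replicate 6 (80.8, nearest 90.2). At H3K4me3 promoters, control unstimulated BMDM replicate 1 was high for Ncf1 (88.1, nearest 52.9) and Rac2 (81.8, nearest 48.6). Ncf1 was also high in diabetic LPS+IFN-γ BMDM replicate 1 (93.4, nearest 57.5), and Cyba in control LPS+IFN-γ BMDM replicate 5 (99.0, nearest 65.2). Outside promoters, H3K4me3 at Cyba was low in control HSC replicate 2 (31.9, nearest 69.8).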

How the results depend on the processing

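The counts of members called between unstimulated BMDM and HSC moved under some alternatives. Where Cybb is counted it is a description, and no test is read from it, since it passed the filter only through BMDM. For H3K27ac outside promoters the count of 4 in control mice (Cybb included) became 2 by exact permutation (Cyba and Cybb). It became 3 ranked on fold, again with Cybb, and 1 with no flank. In diabetic mice the count of 4 (Cybb included) became 1 by exact permutation, 3 ranked on fold (without Cybb) and 2 with no flank. It was from 1 to 4 when 1 library was left out (1 without diabetic HSC replicate 5). For H3K27ac promoters in control mice the count of 1 became 0 by exact permutation, with only the 2 groups fitted and ranked on fold, and 0 to 1 when 1 library was left out. In diabetic mice it became 0 ranked on fold, and by exact permutation the 1 member called was Ncf4 in place of Cyba. For H3K4me3 outside promoters in control mice the count of 1 became 0 by exact permutation, where 0 of 19101 genes were called. It also became 0 with log2 of the peak number as covariate and ranked on fold, and 0 to 1 when 1 library was left out. Over all genes, exact permutation called 1862 of 18090 in control and 1667 in diabetic mice for H3K27ac outside promoters. At H3K27ac promoters it called 1617 and 2210 of 16825. With no flank the Ncf1 difference turned to 0.36 in control and 0.031 in diabetic mice, and that of Cybb to −0.14 in diabetic mice. The best Ncf1 peak lay in a flank in all 12 HSC lists and inside the gene in 5 of 11 unstimulated BMDM lists. Why the signs turned was not tested. Among the 10000 strongest peaks, promoter occupancy was 9 lists for Ncf1, 5 for Ncf4 and 21 for Rac2 with H3K27ac, and 23 for Cyba, 9 for Ncf1, 3 for Ncf4 and 5 for Rac2 with H3K4me3. Of 216 values of the 11 called differences under the alternatives, 168 were called, and of 2432 values of the 115 others 1 was. The 11 include the Cybb differences in control and in diabetic mice. With the replicate number as a block the counts were again 4 and 4 for H3K27ac outside promoters, with Cybb included in each. They were 1 and 1 at promoters and 1 for H3K4me3 in control mice, and 0 for stimulation in either mark. In no comparison did all pairs of the same number have a correlation over 0.1, so the numbers were not taken as a pairing. For stimulation in diabetic mice 4 of 5 did at H3K27ac promoters (median 0.12, other pairs −0.038) and 1 of 5 outside them (0.061, −0.044). With H3K4me3 3 of 5 did at promoters (median 0.13, other pairs −0.077) and 3 of 5 outside them (0.16, −0.038). Whether libraries of the same number share an animal was not tested. Except as stated here and beside the results, the cause of a change was not tested.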
